A study of Homo sapiens with 6 samples.

Results

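The 10 genes described here lie around the CHROME locus in band 2q31 of chromosome 2 and were chosen by name from a table of 23368 genes: AGPS, TTC30B, RBM45, OSBPL6, PRKRA, DFNB59, FKBP7, PLEKHA3, CCDC141 and SESTD1, given here in chromosome order. Each had 1 distinct row in the table. RNA had been sequenced from HepG2, a human liver cancer line, carrying a lentiviral short hairpin RNA (shRNA) in the pLKO vector. In the shCHROME group, with 3 libraries lettered a, b and c, the hairpin was directed at all variants of the long noncoding RNA CHROME. In the EV group, also with 3 libraries lettered a, b and c, it was a non-targeting control. The virus had been packaged in HEK293T, an embryonic kidney line. The sample titles name a single hairpin against CHROME, so an effect of the sequence of that hairpin and an effect of losing CHROME cannot be told apart. No source says whether the libraries came from separate cultures, and p-values measure only the spread between these libraries. CHROME itself is not analysed here, so no extent of knockdown stands beside the values.

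Long noncoding RNAs can act in cis, on genes close to their own site of transcription, or in trans, on distant genes or on other RNAs such as microRNAs. Genes beside the locus are the usual place to look for an effect in cis. An shRNA acts on the transcript after it is made, through the RNA interference machinery, and leaves the DNA of the locus in place.

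The genes have unrelated functions. PRKRA encodes PACT, a double-stranded RNA binding protein that activates the kinase PKR and associates with Dicer. DFNB59, now named PJVK, encodes pejvakin, a gasdermin family protein whose loss causes deafness. AGPS makes the ether bond of plasmalogens in peroxisomes, and OSBPL6 is an oxysterol-binding protein relative. FKBP7 is a prolyl isomerase of the endoplasmic reticulum, and PLEKHA3 (FAPP1) binds phosphatidylinositol 4-phosphate at the Golgi. TTC30B is a subunit of the intraflagellar transport B complex of cilia, RBM45 an RNA-binding protein, SESTD1 a protein with SEC14-like and spectrin domains, and CCDC141 a coiled-coil protein.

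PRKRA and DFNB59 are transcribed in opposite directions, and RefSeq (GRCh38.p14) gives each 3 start sites. The first listed, 178451175 for PRKRA and 178451378 for DFNB59, are 203 bases apart. For these 2 starts, 298 bases of the 300-base promoter windows are the same DNA read on opposite strands. The other starts lie further apart, at 178450757 and 178450628 for PRKRA and at 178451436 and 178453239 for DFNB59. FKBP7 and PLEKHA3 are also divergent, but their start sites are 1857 bases apart and their windows share 0 bases. The first listed windows (250 bases before to 50 after a start site) of DFNB59, FKBP7 and PLEKHA3 are shown. These 3 windows hold a start of DFNB59, the called gene, and of the 3 genes around it, PRKRA, FKBP7 and PLEKHA3, none of which was called. Capitals mark the GC box word GGGCGG or its reverse complement CCGCCC. The DFNB59 window, which also covers the first listed PRKRA start, is chr2:178451128-178451427 on the plus strand. That of FKBP7 is chr2:178478551-178478850 on the minus strand, and that of PLEKHA3 is chr2:178480207-178480506 on the plus strand.
DFNB59: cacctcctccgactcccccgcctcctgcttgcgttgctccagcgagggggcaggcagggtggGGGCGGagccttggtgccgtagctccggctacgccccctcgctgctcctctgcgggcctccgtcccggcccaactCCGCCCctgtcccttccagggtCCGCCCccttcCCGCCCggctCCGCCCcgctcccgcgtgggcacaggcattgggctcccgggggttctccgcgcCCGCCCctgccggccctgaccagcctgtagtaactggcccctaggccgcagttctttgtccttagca
FKBP7: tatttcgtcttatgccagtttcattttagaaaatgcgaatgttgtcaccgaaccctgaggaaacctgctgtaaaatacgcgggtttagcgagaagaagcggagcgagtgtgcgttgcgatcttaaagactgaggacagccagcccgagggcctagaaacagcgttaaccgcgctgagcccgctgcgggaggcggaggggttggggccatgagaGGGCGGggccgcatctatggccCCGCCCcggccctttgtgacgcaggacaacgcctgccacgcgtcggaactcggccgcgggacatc
PLEKHA3: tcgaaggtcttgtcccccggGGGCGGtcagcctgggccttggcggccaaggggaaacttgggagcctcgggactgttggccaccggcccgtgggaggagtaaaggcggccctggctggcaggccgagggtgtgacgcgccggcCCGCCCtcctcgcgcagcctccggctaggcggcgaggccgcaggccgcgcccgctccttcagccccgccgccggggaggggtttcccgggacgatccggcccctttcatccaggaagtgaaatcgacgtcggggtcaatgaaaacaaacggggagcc

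The shared window held the GC box word 6 times and the FKBP7 and PLEKHA3 windows 2 times each. RefSeq windows were found for 9 of the 10 genes (SESTD1 is named only), 14 windows in all. GGGCGG on either strand stood in 9 of the 14 windows (64.3%), and in 45.0% of all 35116 windows of the same length. CCAAT stood in 4 (28.6%), against 34.6% of all, and TATAAA in 1 (7.14%), against 11.5% of all. Windows of PRKRA and DFNB59 overlap, so 1 site can be counted in several of the 14 windows. By gene, GGGCGG stood in 6 of the 9, CCAAT in 2 and TATAAA in 1, with no count by gene for the background. Words that overlapped one another were each counted, and a match is a description of these letters, not a binding site.

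DFNB59 was the only one of the 10 genes that passed the test (1 higher of 8 tested, where 3.64% of all 14598 tested genes were higher). Its normalized counts (reads divided by the authors' size factor for each library) were 38.3, 51.7 and 35.1 in shCHROME libraries a, b and c, against 16.7, 23.8 and 17.9 in EV libraries a, b and c. All 3 shCHROME libraries lay above all 3 EV libraries. Means were 41.7 ± 8.81 in shCHROME and 19.5 ± 3.77 in EV (SD, n = 3 each), and DFNB59 rose 2.08-fold (95% interval 1.38 to 3.14). On the log2(value + 1) scale the fold change was 1.06 (SE 0.28, limma adjusted p = 0.022 over 14598 genes). It was among 47 genes (0.322% of those tested) called and at least 2-fold higher. That cut was not fixed beforehand and lies just below the estimate, so the count is a description. The log2 fold change fell below the 2-fold cut without shCHROME replicate b (0.895) or EV replicate a (0.96).

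The value of DFNB59 rests on few reads, 41, 50 and 33 in the shCHROME libraries and 15, 26 and 18 in the EV libraries. In the authors' deposited table DFNB59 had a log2 fold change of 0.38 and an adjusted p of 0.0363, in a table where 3.02% of genes with an adjusted p were higher at this threshold; that fold change is another measure than the limma one. The call was lost without shCHROME replicate b (adjusted p = 0.103), without EV replicate a (0.0735) or without EV replicate c (0.0689), with log2 fold changes of 0.895, 0.96 and 1.007. Over 16 alternatives the log2 fold change ran from 0.895 to 1.201 and the adjusted p from 0.019 to 0.103. Bulk RNA cannot tell more cells with a transcript from more transcript per cell.

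PRKRA, the other gene of the shared window, was measured with far more reads. Its normalized counts were 2598, 2602 and 2703 in shCHROME libraries a, b and c, against 2435, 2514 and 2330 in EV libraries a, b and c. All shCHROME libraries lay above all EV libraries, but by a small margin, and PRKRA did not pass the test (fold 1.09, 95% interval 0.995 to 1.19, limma adjusted p = 0.236). The interval leaves out a change of the size of the estimate for DFNB59. Per base of exon, DFNB59 reads were 1.53%, 2.07% and 1.35% of PRKRA reads in shCHROME libraries a, b and c, against 0.715%, 0.984% and 0.8% in EV libraries a, b and c. This ratio was higher in all 3 shCHROME libraries, by 0.98 on the log2 scale (exact permutation test, two-sided, p = 0.1, the smallest that 3 against 3 libraries allow). Because it uses the same DFNB59 reads as the call, and PRKRA differed by a fold of 1.09, the ratio restates the DFNB59 difference and adds no support. For FKBP7 over PLEKHA3, the divergent genes with separate windows, it averaged 115% ± 8.56 in shCHROME and 112% ± 2.4 in EV (SD, n = 3 each; exact permutation p = 0.7).

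Whether reads can be assigned to 1 gene differs between the members. In GENCODE 29 transcripts, 1.917% of the 50-base stretches (a length chosen here, not a stated read length) of DFNB59 also occur in PRKRA on either strand, which is the most that DFNB59 shares with any gene. For PRKRA 2.988% occur in another gene: 2.017% occur in DFNB59, and AC009948.1 also shares stretches with it. The sources used here do not say whether the authors counted by strand, so reads of these stretches cannot be assigned for certain. PRKRA was far more abundant than DFNB59. Its CPM (reads per gene scaled only to the library total) per kilobase of exon averaged 21.3 in shCHROME and 19.0 in EV. DFNB59 averaged 0.352 in shCHROME and 0.159 in EV. Counted without strand, 1.917% of the stretches could therefore hold far more than 1.917% of the reads counted for DFNB59. How many DFNB59 reads came from PRKRA was not tested.

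**Figure D1:**
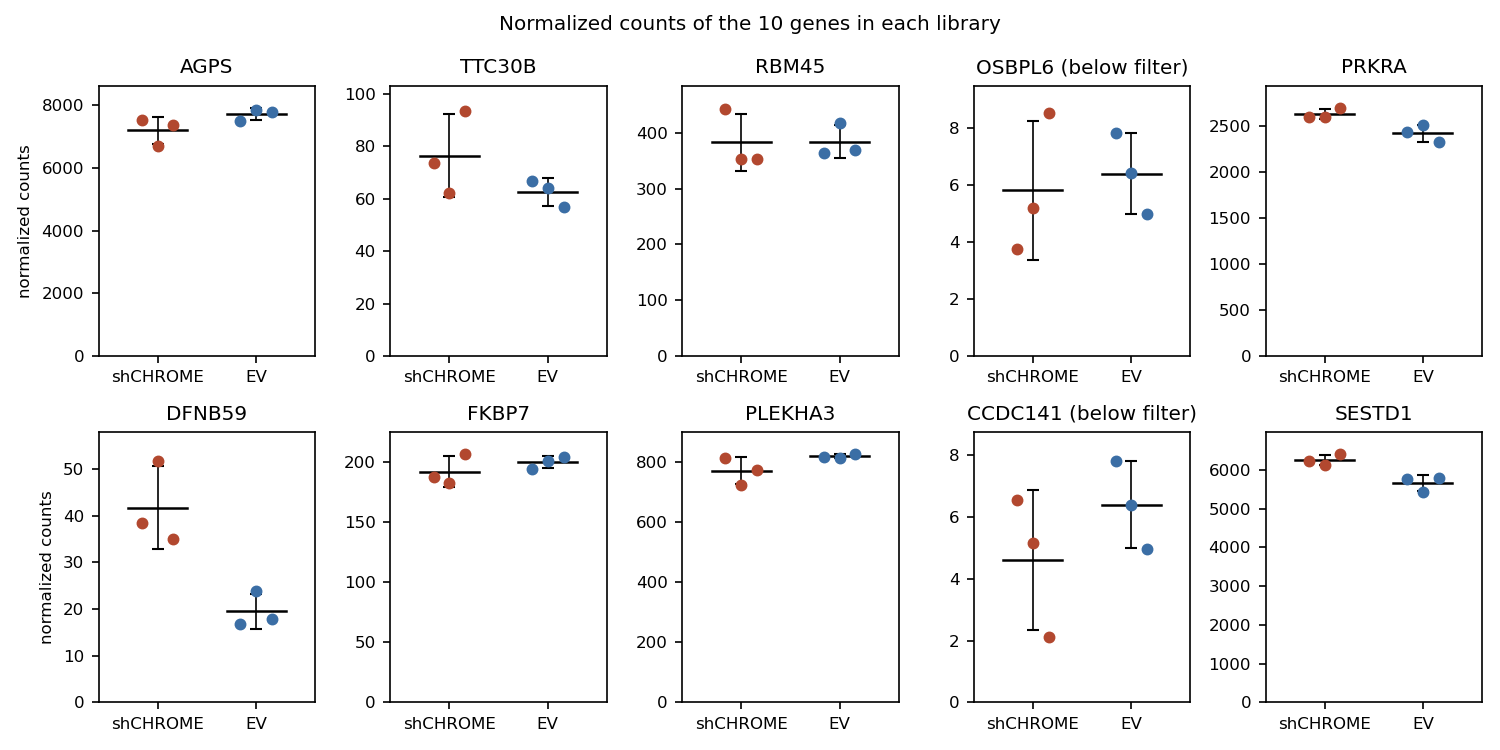
Normalized counts (vertical axes, each from 0) of the 10 genes in shCHROME libraries (red) and EV libraries (blue), with replicates a, b and c from left to right, the group mean as a line and the SD as a bar (n = 3 each). The shCHROME libraries lie above the EV libraries in DFNB59 (35.1 to 51.7 against 16.7 to 23.8), PRKRA and SESTD1, and just below them in PLEKHA3.

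SESTD1, which binds phospholipids and membrane channels, had normalized counts of 6218, 6135 and 6399 in shCHROME libraries a, b and c, against 5764, 5417 and 5781 in EV libraries a, b and c. The groups did not overlap. The fold was 1.11 (95% interval 1.02 to 1.2), with a limma adjusted p of 0.105, so SESTD1 was not called. Scaling libraries to their totals, which puts the median log2 fold change of all genes at 0.0583, against 0.009 with the authors' scaling, gave SESTD1 a log2 fold change of 0.195 and an adjusted p of 0.0253. No other member crossed the threshold under that scaling.

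**Figure D2:**
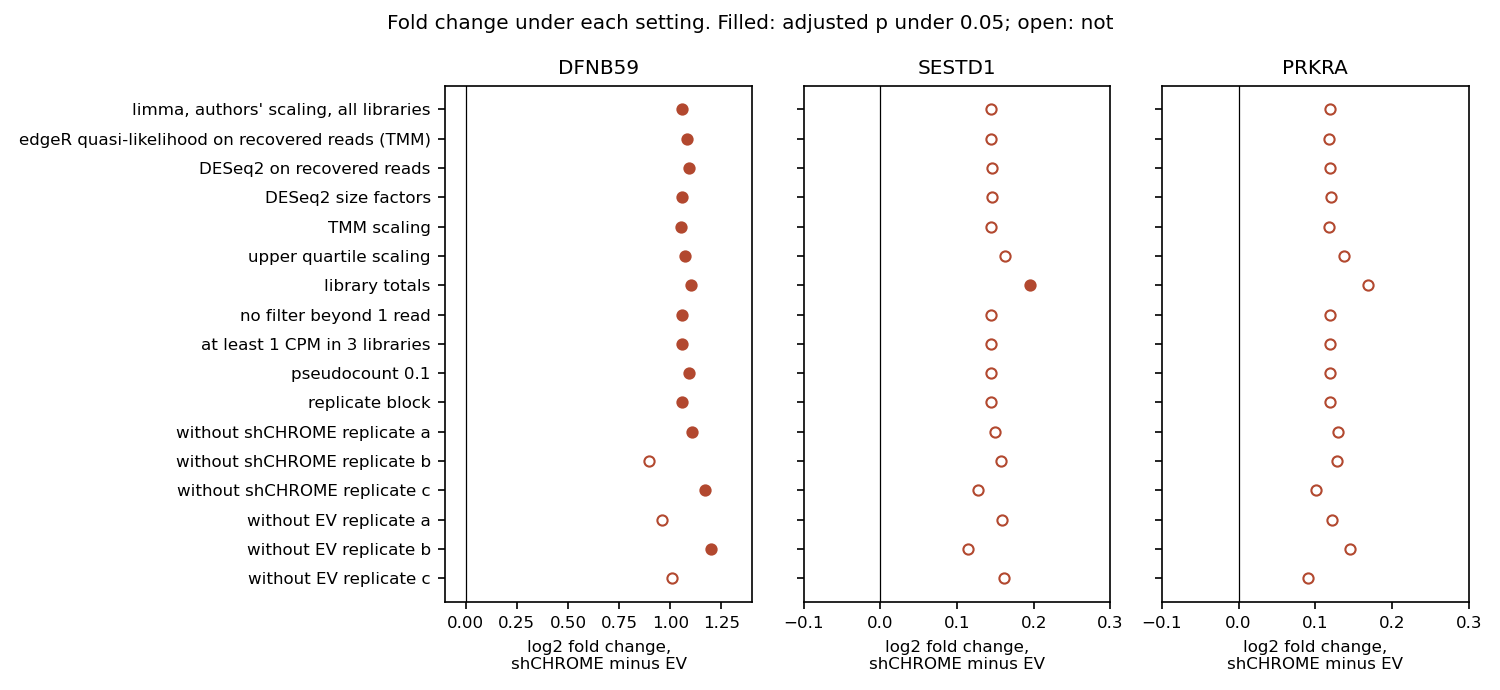
Log2 fold change of shCHROME minus EV (horizontal axes) for DFNB59, SESTD1 and PRKRA under the test as reported and 16 alternatives, filled where the adjusted p was under 0.05. DFNB59 stays between 0.895 and 1.201 and loses the call without shCHROME replicate b, EV replicate a or EV replicate c, SESTD1 is called with library totals alone, and PRKRA is not called in any.

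PLEKHA3 had normalized counts of 812.6, 723.7 and 772.8 in shCHROME libraries a, b and c, against 816.1, 813.5 and 825.4 in EV libraries a, b and c. All shCHROME libraries lay below the EV libraries, replicate a by less than 1 count, and the groups overlapped in CPM, reads per gene scaled only to the library total. The log2 fold change was -0.09 (95% interval -0.25 to 0.07, limma adjusted p = 0.534). Of its 50-base stretches 1.476% occur elsewhere, most of them in PLEKHA3P1.

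FKBP7 had normalized counts of 186.8, 182.0 and 206.2 in shCHROME libraries a, b and c, against 194.0, 200.2 and 204.1 in EV libraries a, b and c. The groups overlapped, with a log2 fold change of -0.06 (95% interval -0.32 to 0.20, limma adjusted p = 0.829). None of the FKBP7 stretches was found in another gene.

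AGPS, the most abundant of the 10 genes per exon length, had normalized counts of 7522, 6702 and 7387 in shCHROME libraries a, b and c, against 7494, 7866 and 7806 in EV libraries a, b and c. Replicate b of shCHROME was the lowest library, and the groups overlapped, with replicate a of shCHROME just above the lowest EV library. The log2 fold change was -0.10 (95% interval -0.22 to 0.02, limma adjusted p = 0.302). AGPS shares 1.987% of its 50-base stretches with other genes, TTC30B foremost.

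TTC30B had normalized counts of 73.8, 62.0 and 93.5 in shCHROME libraries a, b and c, against 66.9, 64.0 and 56.8 in EV libraries a, b and c. Library b of shCHROME lay within the EV range and the others above it. The log2 fold change was 0.27 (95% interval -0.15 to 0.69, limma adjusted p = 0.457). TTC30B has the closest paralogue of the group: 15.8% of its 50-base stretches also occur in TTC30A, the next gene on the chromosome, so the authors' counting could split or drop reads of both. TTC30A averaged 63.4 ± 13.1 normalized counts in shCHROME and 58.2 ± 4.34 in EV (SD, n = 3 each, limma adjusted p = 0.826).

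RBM45 had normalized counts of 442.7, 352.6 and 354.0 in shCHROME libraries a, b and c, against 364.6, 417.7 and 369.4 in EV libraries a, b and c. The highest and the lowest library were both shCHROME. Means were 383.1 ± 51.7 in shCHROME and 383.9 ± 29.4 in EV (SD, n = 3 each), and the log2 fold change was -0.01 (95% interval -0.24 to 0.23, limma adjusted p = 0.977). Its sign turned with the scaling, to 0.041 with library totals and 0.009 with the upper quartile.

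OSBPL6 and CCDC141 were below the expression filter and had no test. OSBPL6 had 4, 5 and 8 reads in shCHROME libraries a, b and c, against 7, 7 and 5 in EV libraries a, b and c. CCDC141 had 7, 5 and 2 reads in shCHROME, against 7, 7 and 5 in EV. In each gene the groups overlapped. Without the filter the log2 fold change was -0.16 for OSBPL6 (95% interval -1.07 to 0.75) and -0.47 for CCDC141 (-1.43 to 0.48). For OSBPL6 the interval covers folds from 0.476 to 1.68 and for CCDC141 from 0.372 to 1.39. At 2 to 8 reads per library the values leave the direction of either gene undetermined.

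The genes covered a wide range of levels. They were compared as CPM per kilobase of summed GENCODE 29 exon. AGPS averaged 25.6 in shCHROME and 26.6 in EV, PRKRA 21.3 in shCHROME and 19.0 in EV, and SESTD1 17.6 in shCHROME and 15.4 in EV. These were the 3 most abundant genes of the set. RBM45 averaged 2.55 in shCHROME and 2.47 in EV, FKBP7 1.99 in shCHROME and 2.0 in EV, and PLEKHA3 1.73 in shCHROME and 1.78 in EV. TTC30B averaged 0.607 in shCHROME and 0.48 in EV, and DFNB59 0.352 in shCHROME and 0.159 in EV. OSBPL6 averaged 0.0161 in shCHROME and 0.0172 in EV, and CCDC141 0.00952 in shCHROME and 0.0128 in EV. The order of the 10 levels was the same in both groups. Only OSBPL6 and CCDC141, neighbours in that order, overlapped in their library ranges. DFNB59 was the lowest of the 8 genes with a test.

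**Figure D3:**
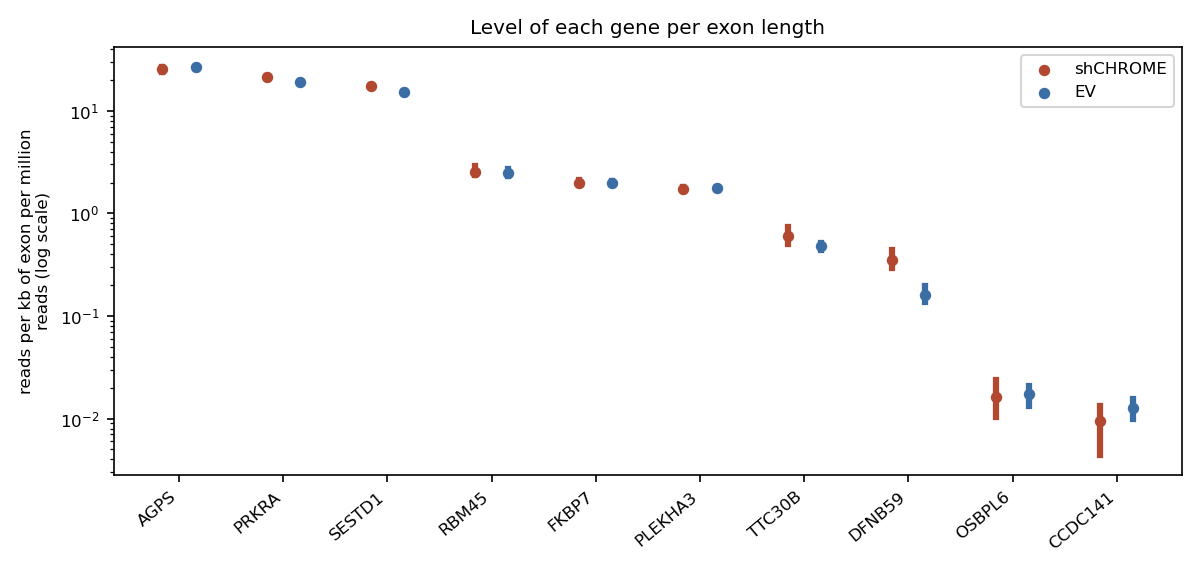
CPM per kilobase of exon (log axis) for the 10 genes in shCHROME (red) and EV (blue), ordered by the EV mean, with the mean as a point and the lowest to highest library as a bar (n = 3 each). DFNB59 (0.352 in shCHROME, 0.159 in EV) is the gene whose bars stand furthest apart among those above the filter.

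Over the 10 genes, 8 passed the filter, 1 was higher, 0 were lower and 7 were not called with limma. Over all 14598 genes tested, 3.64% were higher and 6.87% lower, 10.5% in all, so 1 call among 8 tested genes is a share near the background. With library totals the background was 6.41% higher and 4.81% lower, with 2 of the 8 higher. Lower genes made up 65.3% of calls with the authors' scaling and 42.9% with library totals. Before adjustment 2 of the 8 genes, DFNB59 and SESTD1, were higher and 0 lower at limma p under 0.05. At this threshold 1555 of all 14598 tested genes were higher and 1972 lower. edgeR's quasi-likelihood test and DESeq2 on recovered reads each called 1 higher (DFNB59) and 0 lower, where the background was 3.69% higher and 6.95% lower with edgeR and 4.29% higher and 7.87% lower with DESeq2. The median log2 fold change was 0.055 over the 8 tested genes, -0.009 over the 7 without DFNB59 and 0.009 over all tested genes. The groups did not overlap in normalized counts in 4 of the 8 genes (DFNB59, PRKRA and SESTD1 above, PLEKHA3 below), while 28.0% of all tested genes did not overlap, 13.0% with shCHROME above and 15.0% with shCHROME below. In CPM the groups did not overlap in 3 of the 8 (DFNB59, PRKRA and SESTD1), against 30.5% of all tested genes.

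By position, the 5 nearest genes of the table on each side of PRKRA were TTC30B, TTC30A, PDE11A, RBM45 and OSBPL6 on one side and DFNB59, FKBP7, PLEKHA3, TTN and CCDC141 on the other. Of these 10, 8 were tested, 1 was higher (DFNB59) and 0 were lower with limma, edgeR or DESeq2. With limma, 3.64% of all 14598 tested genes were higher and 6.87% lower. The unadjusted limma p was under 0.05 in DFNB59 alone, where 1555 of all tested genes were higher and 1972 lower at that threshold. TTN, which encodes the giant muscle protein titin, averaged 1443 ± 202 normalized counts in shCHROME and 1388 ± 159 in EV (SD, n = 3 each, limma adjusted p = 0.807). Across chromosome 2, 113 of 967 tested genes were called (11.7%).

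**Figure D4:**
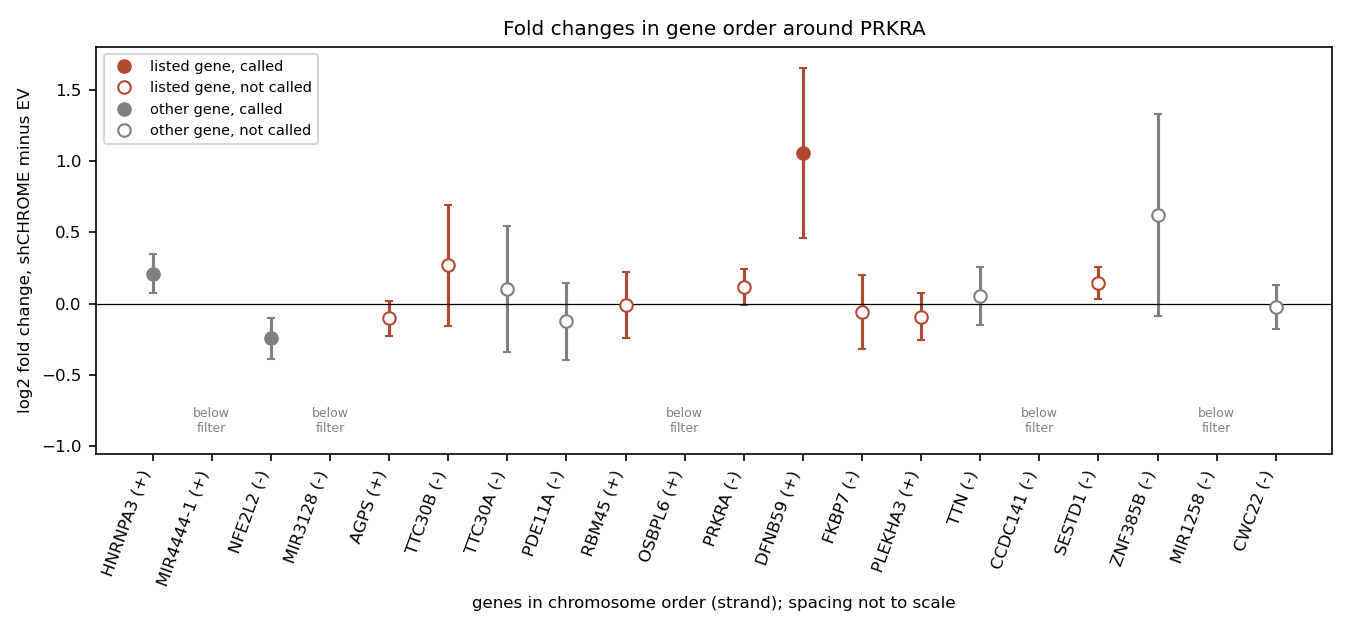
Log2 fold change of shCHROME minus EV (vertical axis) with its 95% interval for genes in chromosome order from HNRNPA3 to CWC22, strand in brackets, spacing not to scale; red marks the listed genes, grey the others, and filled points the called ones. DFNB59 stands at 1.06 and the genes next to it, PRKRA and FKBP7, have intervals that include 0.

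Of 36 other genes named for the wider 2q31 region, 27 were tested, 3 were higher, 1 was lower and 23 were not called, with a median log2 fold change of 0.016. Over all tested genes 3.64% were higher and 6.87% lower, 10.5% in all, and nothing particular to 2q31 is read from 4 calls among 27. MTX2, a subunit of the mitochondrial outer membrane sorting machinery, rose to 1862 ± 56.2 normalized counts in shCHROME, against 1591 ± 99.1 in EV (SD, n = 3 each, 1.17-fold, limma adjusted p = 0.0367). HNRNPA3, an RNA-binding protein of the hnRNP family, rose 1.16-fold (0.0464), and NUP35, a nuclear pore subunit, 1.27-fold (0.012). NFE2L2, the transcription factor NRF2, fell to 7177 ± 535 normalized counts in shCHROME, against 8497 ± 696 in EV (SD, n = 3 each, limma adjusted p = 0.0264). HNRNPA3 was also not called without the expression filter (0.0623). Each of the 3 higher genes lost its call when some libraries were left out: MTX2 in 5 of 6 omissions (all but EV replicate c, adjusted p up to 0.171), HNRNPA3 in 4 (shCHROME replicates b and c, EV replicates a and b, up to 0.226) and NUP35 in 2 (shCHROME replicate c and EV replicate c, up to 0.0735). The call of NFE2L2 was lost with library totals (adjusted p = 0.0664), and without shCHROME replicate b (0.0997), EV replicate a (0.0879) or EV replicate c (0.151).

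The functional partners of the members were counted from lists chosen by name. Over all 14598 tested genes 3.64% were called higher and 6.87% lower with limma. At unadjusted limma p under 0.05, 1555 of them were higher and 1972 lower. Each list holds few genes, so 0 calls do not show that its genes were unchanged. Of 11 double-stranded RNA and small RNA partners of PRKRA, 7 were in the table under those symbols, and 0 were called with limma, edgeR or DESeq2 (2 higher at unadjusted p under 0.05). The 5 gasdermin relatives of DFNB59 gave 0 calls with any of these tools and 0 at unadjusted p under 0.05. The same was true of 8 Golgi phosphoinositide genes around PLEKHA3. Of 9 genes of ether lipid synthesis and peroxisomal import around AGPS, 7 were tested and 0 were called with limma or edgeR, 2 being lower at unadjusted p under 0.05. DESeq2 called 1 of them lower, GNPAT, which makes the substrate of AGPS (adjusted p = 0.0405).

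In the oxysterol-binding protein family of OSBPL6, 2 of 9 tested genes fell and 0 rose. The counts of this family and of those that follow stand beside 3.64% higher and 6.87% lower over all 14598 tested genes, and each rests on few genes. OSBP2 fell to 148.4 ± 28.7 normalized counts in shCHROME, against 308.6 ± 8.38 in EV (SD, n = 3 each), with a limma adjusted p of 6.88e-05. OSBPL10 fell 1.41-fold (limma adjusted p = 0.000353). Of the secretory FK506-binding proteins related to FKBP7, 1 of 5 fell, FKBP11, by 1.31-fold (limma adjusted p = 0.000567). These calls of relatives held in each of 16 alternatives. Among 14 tested partners of TTC30B in intraflagellar transport, 2 rose and 0 fell: IFT88 by 1.28-fold and IFT172 by 1.31-fold. The call of IFT88 was lost without shCHROME replicate c, EV replicate a or EV replicate c (adjusted p up to 0.148), and that of IFT172 without shCHROME replicate b or c or EV replicate a or b (up to 0.133).

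Genes with the pattern over the 6 libraries most like that of DFNB59 were sought by the smallest root mean square difference of centred log2(value + 1). They were MIR4737 (0.104), the long noncoding RNA H19 (0.13) and the kinase gene BLK (0.177). H19 averaged 268.0 ± 35.8 normalized counts in shCHROME and 149.6 ± 21.2 in EV (SD, n = 3 each). H19 was called higher (limma adjusted p = 0.000754), while MIR4737 (0.188) and BLK (0.0623) were not called. These genes were picked for their likeness over the same libraries, so their pattern is a description.

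Recovered read totals ran from 29477352 to 33911426 in shCHROME and from 29188213 to 35429420 in EV. HepG2 was checked against 8 hepatocyte markers, all detected in each library. Their summed level was 33900 to 40400 CPM in shCHROME and 41400 to 45100 CPM in EV. Of the 8, 5 were called lower (ALB, AFP, APOA1, TTR and SERPINA1) and 0 higher, where 6.87% of all tested genes were lower. APOB, HNF4A and FGB were not called. Of 5 markers of the packaging line, PAX2, LHX1 and EMX2 were at or near 0 (at most 5.315 normalized counts). The other markers were expressed: CDH2 was 2598 to 2754 in shCHROME and 3078 to 3213 in EV and was called lower, and SALL1 was 276.5 to 289.1 in shCHROME and 192.0 to 288.8 in EV and was not called. The sum of the 5 was 93.0 to 95.9 CPM in shCHROME and 101 to 108 CPM in EV. Of 3 hair cell markers, a cell type that uses DFNB59, POU4F3 was at most 0.914 normalized counts, OTOF at most 14.9, and MYO7A was 372.7 to 480.8 in shCHROME and 463.4 to 568.5 in EV. Their sum was 12.0 to 15.5 CPM in shCHROME and 14.5 to 17.8 CPM in EV. Of 4 striated muscle markers, a tissue that uses CCDC141 and TTN, the sum was 4.99 to 6.63 CPM in shCHROME and 4.61 to 5.72 CPM in EV. The part of the decrease of the 5 called hepatocyte markers in the values of the 10 genes was not tested.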

How the data were processed

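The authors deposited 1 table with a never-negative signal per gene and library, read counts divided by a size factor. Libraries were made with a TruSeq RNA kit, per the labels' protocols. STAR 2.5, featureCounts 1.5.2, DESeq2 (given as 3.4) and build hg19 are named, per the submitters' processing notes. The deposited table also gives the authors' log2 fold changes and p-values with their adjusted p-values. Of 24656 rows, 1288 repeats were dropped. Whole reads were recovered from the value of 1 read in each library, within 0.01 reads for 100% of genes.

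The main test was an intensity-trended limma 3.58.1 fit of log2(value + 1), with all 6 libraries, group as the only term, genes kept by filterByExpr of edgeR 4.0.16 and Benjamini-Hochberg adjustment over all 14598 genes; a call is an adjusted p under 0.05. Folds are powers of that difference and understate changes of low genes. edgeR and DESeq2 1.42.0 ran on recovered reads. All 10 members, the lists and the rule for named genes (members, called neighbours and partners, TTC30A, TTN and the 3 genes most like a called member) were chosen with earlier results of these data known. GNPAT was added after its values were seen. Gene order and exon lengths came from GENCODE 29 (GRCh38) by gene identifier, and 1302 of 1471 chromosome 2 genes of the table could be placed; exon models may differ from those of the authors. Promoters came from RefSeq. The fit was also run on simulated counts with known changes. The outcome is not reported here, so how often it misses small changes is not stated.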

Additional observations from a re-analysis of the deposited data

How the results depend on the processing

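Over the 8 tested members and 16 alternatives (128 values), 119 kept direction and side of the threshold. DFNB59 lost the call in 3, SESTD1 gained it in 1 (library totals) and RBM45 changed sign in 5, the cause of which was not tested. RBM45 was at 0.009 with the upper quartile, 0.041 with library totals and -0.117 to 0.053 with 1 library left out. TTC30A ran from -0.033 to 0.266 and TTN from -0.024 to 0.172 over the same omissions. With 1 library left out, 245 to 528 genes were higher (the least without shCHROME replicate c, with 297 without EV replicate a and 323 without EV replicate c) and 599 to 1051 lower. Over the same omissions, members called higher ran from 0 to 1, and other 2q31 genes from 0 to 2 higher and 0 to 2 lower. Library totals gave 936 higher genes, 2 members higher and 0 other 2q31 genes lower. The replicate block on the letters a, b and c gave 349 higher and 764 lower genes and 1 other 2q31 gene higher, and kept DFNB59 (adjusted p = 0.0363). Under the block MTX2 (0.0786), HNRNPA3 (0.0709), IFT88 (0.0572) and IFT172 (0.0538) were not called. Nothing in the labels pairs the letters: same-letter libraries had correlations of deviations of -0.047, -0.0915 and 0.0444, and shCHROME a correlated best with EV b (0.1294). OSBPL6 and CCDC141 have values without the filter alone, and their 4 to 8 and 2 to 7 reads per library, like the 15 to 50 of DFNB59, set the precision.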
